A study of Gorilla gorilla gorilla with 14 samples.

Results

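The genes described here are 7 genes best known from mesenchyme, the loose supporting tissue that forms the meninges, the coats of blood vessels and the connective tissue of the head: FOXC1, FOXC2, TWIST1, TBX18, PDGFRB, COL1A1 and LUM. Their regulatory regions were followed in 4 neural cell types of gorilla cerebral organoids. Members are the regions of the deposited count table that have a position in the gorilla assembly gorGor6 and list 1 of the 7 genes as their closest gene. This rule found 51 regions of 204249 in all. It used gene names only, not read counts, but the 7 genes were chosen with earlier results of these data known. A region at most 1000 bp from its gene is called a promoter region and the others distal. There were 7 promoter regions, 1 per gene, and 44 distal regions, of which 34 list FOXC1, 4 PDGFRB, 3 TBX18 and 1 each FOXC2, COL1A1 and LUM. TWIST1 had none.

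FOXC1 and FOXC2 are closely related forkhead transcription factors that pattern head mesenchyme, and FOXC1 is required for the meninges. TWIST1 is a basic helix-loop-helix factor of neural crest and mesoderm, and TBX18 a T-box factor of mural cells and other mesenchyme. PDGFRB is the receptor through which growth factor released by endothelium recruits pericytes. COL1A1 encodes a chain of type I collagen and LUM encodes lumican, a small proteoglycan that binds collagen fibres. In the developing cortex these genes are known as markers of meninges, vessel walls and fibroblasts, whereas radial glia, intermediate progenitors and neurons descend from the neural tube. An open promoter does not by itself show that a gene is transcribed.

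Bulk ATAC-seq reads out open chromatin by letting a transposase insert sequencing adapters into it, and was run here on cells sorted by flow cytometry from organoids at week 8 of culture. All organoids came from 1 induced pluripotent stem cell line, GC1, of Gorilla gorilla gorilla, so every value rests on a single line. The sorted groups comprised apical radial glia (aRG, n = 3 libraries), basal radial glia (bRG, n = 2 libraries), basal intermediate progenitors (bIP, n = 5 libraries) and neurons labelled BCL11B+ (N, n = 4 libraries). Separate cultures are not stated for the libraries of a group, and p-values therefore cover only the spread between libraries, which may be technical.

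Totals over the regions ran from 12834983 to 26660427 counts per library, and accessibility is given in CPM, counts scaled to a common library total. In these units 3 counts corresponded to 0.113 to 0.208 CPM. The library numbers form a first and a second series of 7 libraries each, and both bRG libraries belong to the second. Within groups, aRG replicates 1 and 2 and bIP replicates 1 and 2 were the closest pairs (chi-square divided by its degrees of freedom, 1.08 and 1.09, against 1.49 to 12.2 for the other pairs). The promoter of SOX2, a radial glia factor, stood at 59.3 ± 1.60 CPM in aRG (SD, n = 3) and at 9.59 ± 1.56 in N (SD, n = 4). The promoter of EOMES, which defines intermediate progenitors, was highest in bIP at 83.0 ± 19.8 CPM (SD, n = 5). The promoter of BCL11B itself did not mark the neurons, at 19.7 ± 3.50 CPM in aRG and 20.3 ± 3.80 in N.

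In short, 6 of the 7 promoters lost accessibility between apical radial glia and neurons, none passed the test between the 2 kinds of radial glia, and the genes fell at different steps. FOXC1 fell at both steps, from basal radial glia to intermediate progenitors and again to neurons. FOXC2 and COL1A1 fell at the first step, and TWIST1, TBX18 and PDGFRB at the second. LUM alone was higher in neurons than in intermediate progenitors. In bulk libraries, fewer cells with an open region and less accessibility per cell cannot be told apart.

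Per kilobase of region, the 7 promoters ranked as TBX18, PDGFRB, COL1A1, FOXC1, TWIST1, FOXC2 and LUM in aRG. The TBX18 promoter held 19.1 CPM per kb there, at percentile 62.2 of 10099 protein-coding promoters. PDGFRB held 13.2 CPM per kb (percentile 39.6), COL1A1 12.9 (38.4), FOXC1 7.08 (21.2), TWIST1 6.97 (21.0), FOXC2 5.30 (16.5) and LUM 3.61 (11.8). The levels of PDGFRB and COL1A1, and those of FOXC1 and TWIST1, lay close together in this order. In N the TBX18 promoter was at percentile 38.1, PDGFRB at 18.0, FOXC1 at 5.83 and FOXC2 at 4.29, whereas LUM was at 16.9. TBX18 was the only 1 of the 7 whose level exceeded the median promoter in aRG, bRG or bIP, and none did in N.

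The FOXC1 promoter (chromosome 6, 1549189 to 1550805, gorGor6) held 11.4, 11.7 and 11.3 CPM in the 3 aRG libraries and 13.6 and 12.5 in the 2 bRG libraries. It held 6.69, 5.95, 4.92, 6.36 and 9.60 CPM in bIP and 2.73, 3.73, 3.17 and 2.30 in N. The radial glia, the intermediate progenitors and the neurons formed 3 tiers with no overlap between them. The log2 difference was -0.89 ± 0.24 (SE) for bIP against bRG (edgeR adjusted p = 0.00511) and -1.19 ± 0.20 for N against bIP (edgeR adjusted p = 2.01e-05). From aRG to N the log2 difference was -1.97 ± 0.22 (edgeR adjusted p = 2.76e-08). The bIP against bRG call ended without bRG replicate 1 (edgeR adjusted p = 0.0623), and in the second library series alone (0.064), as did that of bIP against aRG (0.357).

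The FOXC2 promoter (chromosome 16, 70701452 to 70702399) was lower throughout, with 4.34, 4.80 and 5.93 CPM in aRG, 4.90 and 5.90 in bRG, 2.08, 1.75, 0.971, 2.65 and 1.83 in bIP, and 1.13, 1.49, 1.54 and 1.55 in N. Every radial glia library lay above every bIP and N library, and the last 2 groups overlapped. FOXC2 fell by 1.31 ± 0.28 on the log2 scale from bRG to bIP (edgeR adjusted p = 0.000481). The step from bIP to N was -0.44 ± 0.24 and did not pass (edgeR adjusted p = 0.116), but it did with loess offsets (0.0481) or without bIP replicate 3 (0.0388). The distal FOXC2 region, 2459 bp away (chromosome 16, 70698288 to 70699245), did not follow the promoter. The 3 aRG libraries averaged 11.6 ± 1.28 CPM and the 2 bRG libraries 10.98 ± 0.900, while bIP stood at 10.1 ± 1.53 (n = 5) and N at 9.496 ± 1.36 (n = 4; all SD). All groups overlapped, and the region passed in no comparison. Its N against aRG difference, -0.34 (edgeR adjusted p = 0.106), passed in 8 of 25 other settings, among them DESeq2 (0.0184), the first library series alone (edgeR, 0.0168) and the fit without bIP replicate 4 (edgeR, 0.022).

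The TWIST1 promoter (chromosome 7, 19764176 to 19766642) held 15.9, 18.0 and 17.8 CPM in aRG, 16.8 and 16.3 in bRG, 12.7, 14.7, 11.99, 14.4 and 20.1 in bIP, and 8.53, 12.02, 9.22 and 8.68 in N. The bIP libraries spanned the radial glia values, and the N libraries were the lowest apart from N replicate 2, which lay just above the lowest bIP library. The difference between bIP and bRG was -0.10 (95% interval -0.56 to 0.36), and that between N and aRG -0.86 ± 0.19 (edgeR adjusted p = 0.000348). TWIST1 in N against bIP, at -0.63 ± 0.17 (edgeR adjusted p = 0.00298), was -0.23 and no longer past the threshold with loess offsets (0.122), and also missed it in the first library series alone (0.0828). Without bRG replicate 1, TWIST1 in N against bRG did not pass either (edgeR adjusted p = 0.0575).

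The TBX18 promoter (chromosome 6, 83167155 to 83168719) was the most accessible of the 7, with 29.1, 31.0 and 29.6 CPM in aRG and 28.2 and 27.1 in bRG. The bIP libraries held 28.2, 25.9, 20.9, 29.7 and 34.5 CPM and the N libraries 15.7, 19.6, 11.9 and 15.8. The bIP values lay on both sides of the radial glia values, and all 4 N libraries lay below every other library. The difference between bIP and bRG was 0.03 (95% interval -0.43 to 0.48), and TBX18 in N fell by 0.83 ± 0.17 against bIP (edgeR adjusted p = 0.000177).

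The promoter of the receptor gene PDGFRB (chromosome 5, 129677203 to 129679285) followed the same course, with 26.3, 25.8 and 30.5 CPM in aRG, 25.0 and 28.3 in bRG, 18.7, 21.1, 20.04, 27.1 and 28.8 in bIP, and 11.9, 13.7, 7.63 and 7.50 in N. The N libraries were again below all others, and within bIP and within N the first and the second library series separated. PDGFRB in N against bIP was -1.19 ± 0.19 (edgeR adjusted p = 1.03e-05). By series this difference was -0.64 in the first and -1.88 in the second, and the 2 differed by -1.24 ± 0.28, past the threshold, in a fit with a series by cell type term, where 8.33% of all regions passed.

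The COL1A1 promoter (chromosome 5, 31607457 to 31609343) held 23.8, 22.9 and 26.3 CPM in aRG and 23.2 and 24.3 in bRG. It held 13.3, 11.7, 9.91, 15.9 and 15.6 CPM in bIP and 13.2, 14.9, 13.3 and 12.99 in N. All 5 radial glia libraries lay above all 9 bIP and N libraries, which overlapped. COL1A1 in bIP fell by 0.73 ± 0.20 on the log2 scale against bRG (edgeR adjusted p = 0.00487), and the difference between N and bIP was 0.02 (95% interval -0.29 to 0.34). The bIP against bRG call ended without bRG replicate 2 (edgeR adjusted p = 0.0568) and in the second series alone (0.0742), while with loess offsets N rose above bIP by 0.42 (0.00127). The single COL1A1 distal region, 3085 bp away, averaged 0.212 to 0.324 CPM per group, near the 3-count floor, and was not tested.

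The LUM promoter (chromosome 12, 87089643 to 87090510) was the lowest of the 7 in aRG, with 3.32, 2.74 and 3.33 CPM there and 3.44 and 3.79 in bRG. It held 2.31, 2.01, 1.73, 2.08 and 1.11 CPM in bIP and 2.65, 2.17, 3.94 and 7.36 in N. The bIP libraries lay below all radial glia libraries, and the N libraries spread over more than the whole range of radial glia. LUM was higher in N than in bIP by 1.03 ± 0.28 (edgeR adjusted p = 0.00305), with 0.25 in the first series and 1.81 in the second, a difference of 1.56 ± 0.44 that passed in the same fit. In the first series alone the call was lost (edgeR adjusted p = 0.36). The fall of LUM from aRG to bIP, -0.77 ± 0.30 (edgeR adjusted p = 0.037), was lost without aRG replicate 1 (0.163), aRG replicate 3 (0.0522), bIP replicate 3 (0.0549) or bIP replicate 5 (0.102), whereas LUM in bIP against bRG (0.13) passed without N replicate 4 (0.00637).

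**Figure D1:**
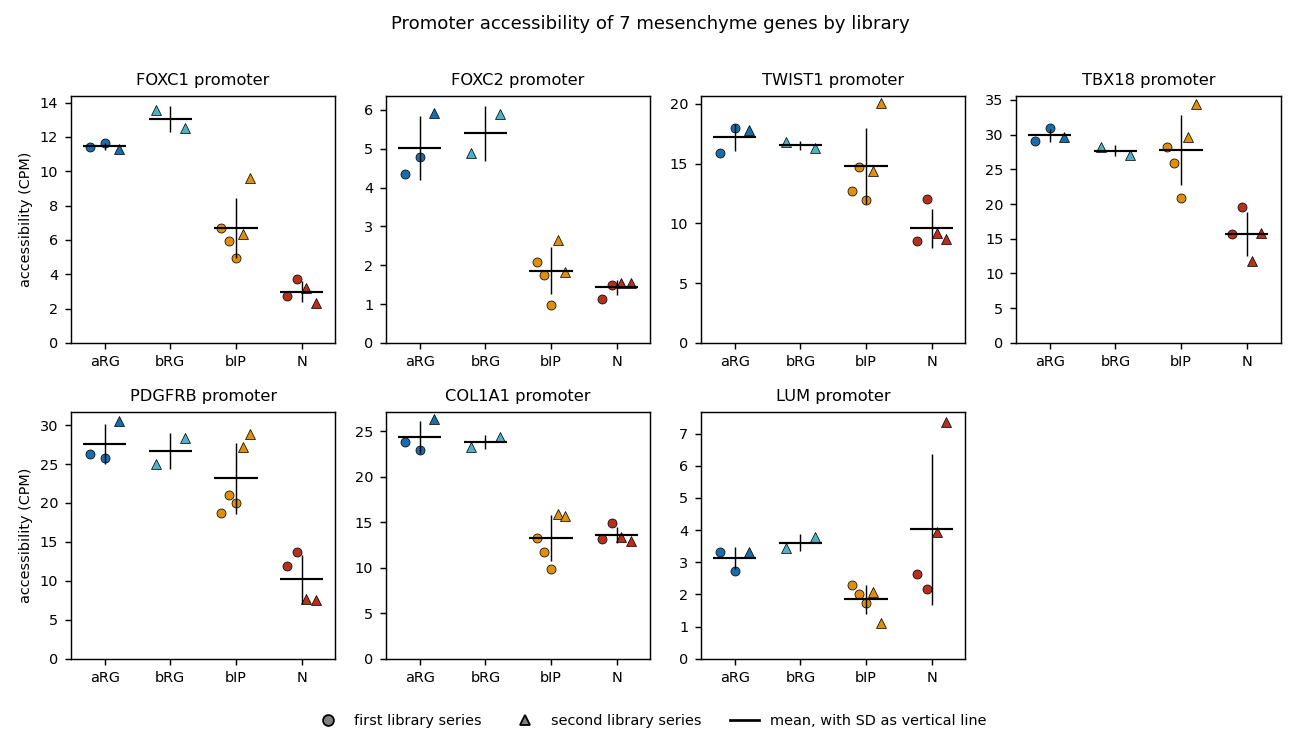
Accessibility in CPM (vertical axis, from 0) of the promoter region of each of the 7 genes, by cell type (horizontal axis). Each point is a library, circles for the first and triangles for the second library series, with the group mean as a horizontal line and the SD as a vertical line. FOXC1 steps down at bIP (6.71 ± 1.75 CPM) and again at N (2.98 ± 0.615), FOXC2 and COL1A1 step down at bIP, and TWIST1, TBX18 and PDGFRB at N.

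Each of the 7 promoters passed the test over the 4 cell types, where 52.2% of all tested promoter regions did. Those that differed were mostly lower in the later cell type. In N against aRG, 6 of 7 passed as lower and none as higher, where 35.1% of 20510 tested promoter regions passed as lower and 17.2% as higher. The median log2 difference was -0.93 over the 7 promoters and -0.26 over all promoter regions. In N against bRG, 6 of 7 passed as lower, where 21.8% of all promoter regions did, and none as higher, beside 16.6%. In bIP against aRG, 4 of 7 (FOXC1, FOXC2, COL1A1 and LUM) passed as lower beside 18.4% of all promoter regions, and none as higher, beside 11.5%. In bIP against bRG, 3 of 7 (FOXC1, FOXC2 and COL1A1) passed as lower, beside 10.1%, and none as higher, beside 10.9%. In N against bIP, 4 of 7 passed as lower beside 22.9%, and LUM alone as higher, beside 14.3%. With 7 promoters these shares are coarse, and they describe the genes chosen here.

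The size of the loss in neurons depended on the scaling for 4 of the promoters. With loess offsets, which remove a trend of differences with abundance, N against aRG was -0.45 for TWIST1, -0.45 for TBX18, -0.43 for COL1A1 and -0.99 for PDGFRB, against -0.86, -0.93, -0.87 and -1.44 with the scaling used throughout. All 4 stayed past the threshold under loess (edgeR adjusted p = 0.00856, 7.51e-05, 0.0021 and 1.12e-05). FOXC1 was -1.78 and FOXC2 -2.16 under loess, against -1.97 and -1.88.

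Apical and basal radial glia were not told apart at any of these genes. In bRG against aRG, 0 of 50 tested member regions passed in edgeR's quasi-likelihood test, where 0% of all 200931 tested regions did. No member region had an unadjusted p under 0.05 (the lowest was 0.0945), and DESeq2 called 0 as well. For all 7 promoters the 95% interval of the log2 difference lay within 2-fold in either direction, with outer bounds of -0.86 and 0.77. Of the 43 tested distal regions, 21 had such an interval, and bounds reached -1.75 and 2.39, so larger differences were not excluded there at this depth and with 2 bRG libraries.

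Over all 50 tested member regions, 42 differed among the 4 cell types, or 84% of them, beside 74.6% of all regions. In N against aRG, 29 passed as lower and 8 as higher, beside 29.2% of all regions lower and 37.1% higher. The median log2 difference there was -0.86 over the member regions and 0.18 over all regions tested. In N against bRG the count was 29 lower and 7 higher, beside 25.8% and 32.2%. In bIP against aRG it was 23 lower and 8 higher, beside 20.9% and 24%. In bIP against bRG it was 19 lower and 6 higher, beside 16.1% and 20.4%, and in N against bIP 20 lower and 9 higher, beside 26.4% and 28.8%. In the second series alone, with 1 aRG library, bIP against aRG called 16 member regions, beside 24.6% of all regions in that fit, in place of 31, beside 44.9%. Since 34 of the 44 distal regions share the single gene FOXC1, these counts are mostly counts of FOXC1 regions.

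**Figure D2:**
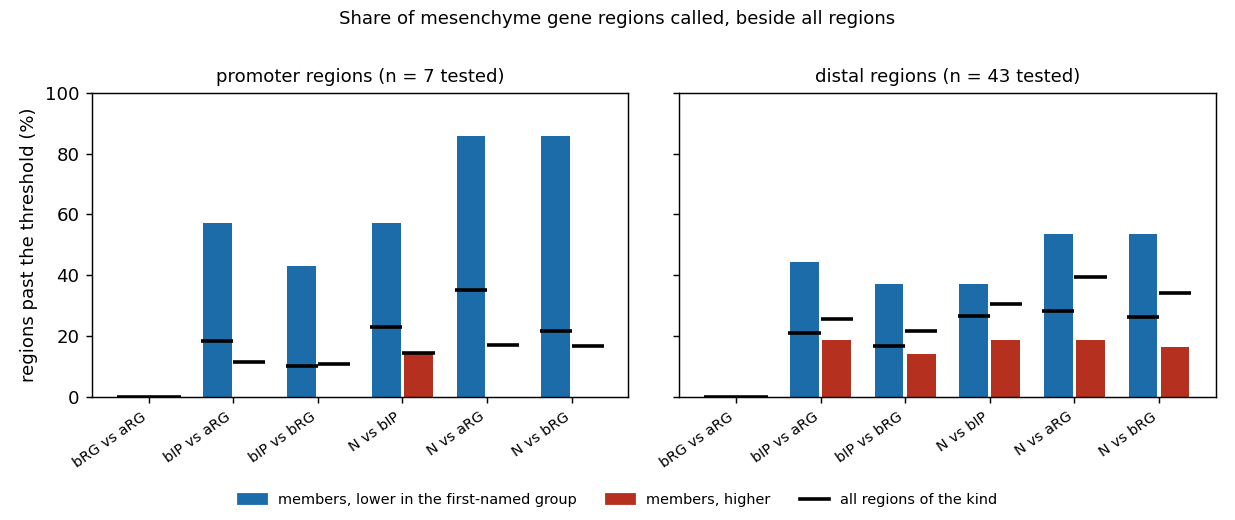
Percentage of the tested regions past the threshold (vertical axis, from 0) in each of 6 comparisons (horizontal axis), for the 7 promoter and the 43 distal regions of the mesenchyme genes. Blue bars are regions lower and red bars regions higher in the first-named cell type, and black lines give the same percentage over all promoter or all distal regions. In N against aRG the promoters stand at 85.7% lower, above the 35.1% of all promoter regions, and the distal regions at 18.6% higher, below the 39.5% of all distal regions.

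The 34 FOXC1 distal regions lie 9912 to 306071 bp from the gene's start, all on the same side, and with the promoter they span 309 kb of chromosome 6. In the gene order of RefSeq for another gorilla assembly, the next gene on that side is GMDS, an enzyme of fucose metabolism, whose promoter passed in no comparison (31.7 CPM in aRG and 29.1 in N). Whether these regions lie inside GMDS, and which gene they act on, was not analysed here. Summed over the 34 regions, accessibility was 195 ± 29.97 CPM in the 3 aRG libraries and 166 ± 0.586 in the 2 bRG libraries. It was 127 ± 10.5 CPM in bIP (n = 5) and 90.8 ± 8.85 in N (n = 4; all SD). A mean of at least 5 CPM was reached by 13 of them in aRG and by 12 in bRG, but by 7 in bIP and 6 in N.

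Most FOXC1 distal regions that changed fell with the promoter, and a minority went the other way. In N against aRG, 20 of the 34 passed as lower and 3 as higher, where 28.4% of 177609 tested distal regions passed as lower and 39.5% as higher. In bIP against bRG, 16 passed as lower and 3 as higher, beside 16.7% and 21.5% of all distal regions. In N against bIP, 13 passed as lower and 5 as higher, beside 26.7% and 30.6%. The median log2 difference in N against aRG was -0.95 over the 34 FOXC1 regions and 0.30 over all distal regions.

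The region at 151474 bp (chromosome 6, 1702055 to 1703294) was among the most open in radial glia and had the smallest p of the FOXC1 regions in the test over cell types. It held 23.2, 25.0 and 16.0 CPM in aRG, 19.2 and 16.4 in bRG, 6.50, 5.82, 4.44, 4.51 and 2.12 in bIP, and 1.56, 1.77, 1.58 and 1.59 in N. Radial glia, bIP and N formed 3 tiers with no overlap, and the largest part of the loss came before the neurons. The log2 difference was -2.27 ± 0.26 for bIP against bRG (edgeR adjusted p = 3.51e-07) and -1.44 ± 0.23 for N against bIP (7.77e-06). The region at 222649 bp (chromosome 6, 1773276 to 1774405) fell likewise, from 12.2 ± 2.97 CPM in aRG and 10.0 ± 0.641 in bRG to 3.99 ± 1.31 in bIP and 1.57 ± 0.471 in N (SD). Its N against aRG difference was -2.83 ± 0.23 (edgeR adjusted p = 1.33e-10), and it was also lower in the second library series.

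The region at 119076 bp (chromosome 6, 1669550 to 1670756), chosen after its values were seen, had the largest fall of the 34 in N against aRG, -3.81 ± 0.29 (edgeR adjusted p = 4.71e-11). It held 30.2, 33.5 and 18.6 CPM in aRG, 17.1 and 17.2 in bRG, 9.94, 9.51, 5.96, 8.97 and 8.30 in bIP, and 2.30, 1.29, 2.93 and 0.891 in N. Here the second-series aRG library lay with the bRG libraries of the same series, and bRG against aRG, at -0.53 (95% interval -1.24 to 0.17), did not pass. The most accessible FOXC1 region on average, at 239766 bp (chromosome 6, 1790384 to 1791862), hardly moved. It held 22.1 ± 2.09 CPM in aRG and 16.4 ± 1.97 in bRG, with 19.04 ± 2.73 in bIP and 16.1 ± 3.99 in N (SD), and its N against aRG call (-0.45, edgeR adjusted p = 0.0454) was lost on leaving out any of 7 single libraries (highest edgeR adjusted p of these, 0.138).

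Other FOXC1 regions, also chosen after their values were seen, were more open in bIP than in radial glia, unlike the promoter. Among them, only the region at 104655 bp rose again in N. The region at 68872 bp (chromosome 6, 1619681 to 1620633) held 1.30, 1.496 and 3.43 CPM in aRG, 2.68 and 2.39 in bRG, 7.90, 7.63, 7.35, 11.5 and 11.1 in bIP, and 4.75, 5.36, 3.07 and 3.00 in N. It peaked in bIP, all 5 of whose libraries lay above all others, with a log2 difference of 2.00 ± 0.35 against bRG (edgeR adjusted p = 5.11e-05). The region at 104655 bp (chromosome 6, 1655206 to 1656369) rose at both steps, from 1.26 ± 0.434 CPM in aRG and 1.16 ± 0.213 in bRG to 4.17 ± 0.450 in bIP and 6.57 ± 1.65 in N (SD). Its N against aRG difference was 2.43 ± 0.27 (edgeR adjusted p = 1.71e-08). The regions at 245944 and 261937 bp were highest in bIP, at 15.1 and 12.9 CPM on average, and both fell in N against bIP (-0.95 and -1.03). A pair separated by 185 bp, at 26268 and 26889 bp, moved in opposite directions in bIP against aRG, by -1.38 ± 0.37 and 1.62 ± 0.39 (edgeR adjusted p = 0.00305 and 0.00124), at levels below 3 CPM.

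**Figure D3:**
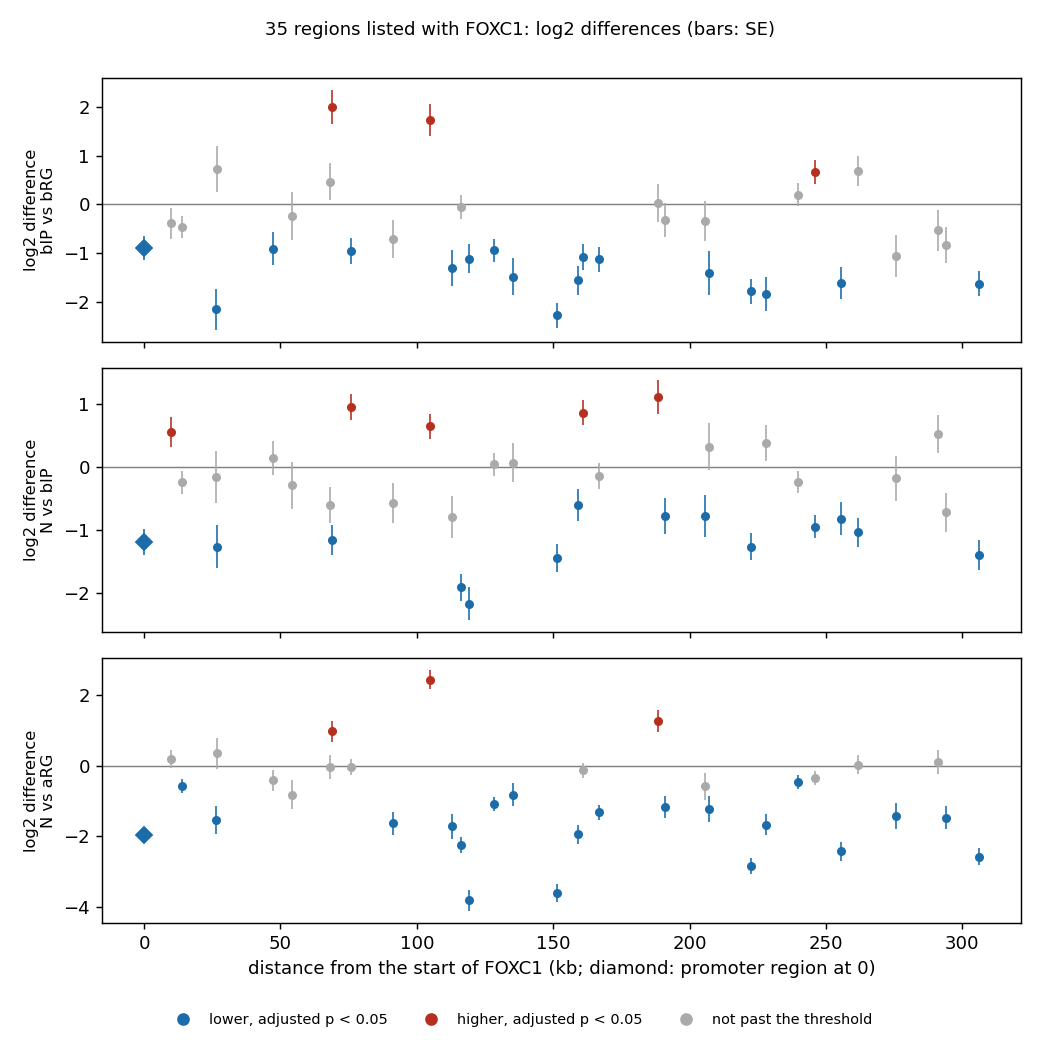
Log2 difference (vertical axis) of the 35 regions listed with FOXC1 against their distance from its start in kb (horizontal axis), for bIP against bRG, N against bIP and N against aRG. Circles are distal regions, the diamond is the promoter region, bars are SE, and blue, red and grey mark regions lower, higher or not past the threshold. The deepest falls in N against aRG are at 119076 and 151474 bp (-3.81 and -3.60), with the rise at 104655 bp (2.43) next to them.

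In N against aRG, all 3 distal regions of TBX18 passed as higher, whereas its promoter was lower. The region at 18671 bp (chromosome 6, 83148629 to 83149565) held 0.592, 0.561 and 0.931 CPM in aRG, 0.909 and 1.12 in bRG, 0.945, 0.970, 1.32, 1.33 and 1.25 in bIP, and 12.3, 8.96, 5.42 and 6.66 in N. Only the N libraries stood out, with no overlap, and N exceeded bIP by 2.83 ± 0.24 (edgeR adjusted p = 6.83e-10). The region at 33493 bp (chromosome 6, 83134087 to 83134724) did the same at a lower level, with 2.03 ± 0.424 CPM in N (SD, n = 4) and group means of at most 0.442 CPM elsewhere, where bIP replicate 5 had 1 count. It rose in N against bIP by 2.27 ± 0.33 (edgeR adjusted p = 1.74e-06). The third, at 7874 bp, was higher in bIP than in bRG by 1.22 ± 0.37 (edgeR adjusted p = 0.0104) and was chosen for mention after its values were seen. Against bIP it was -0.37 in N, the same sign as the promoter, and did not pass.

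The LUM distal region at 30203 bp (chromosome 12, 87120160 to 87121193) rose at both steps. It held 0.553, 0.810 and 1.03 CPM in aRG, 1.01 and 0.796 in bRG, 2.19, 2.78, 1.39, 2.03 and 2.61 in bIP, and 6.97, 3.67, 5.66 and 9.94 in N. All bIP libraries lay above all radial glia libraries and all N libraries above all bIP libraries. The log2 difference was 1.51 ± 0.39 for bIP against bRG (edgeR adjusted p = 0.00317, or 0.0576 without bRG replicate 2) and 1.53 ± 0.24 for N against bIP (7.17e-06). The neighbouring promoter of KERA, which encodes another small proteoglycan of the lumican family, was also higher in N than in bIP, by 2.19 (edgeR adjusted p = 1.09e-07), at 4.86 and 0.951 CPM.

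**Figure D4:**
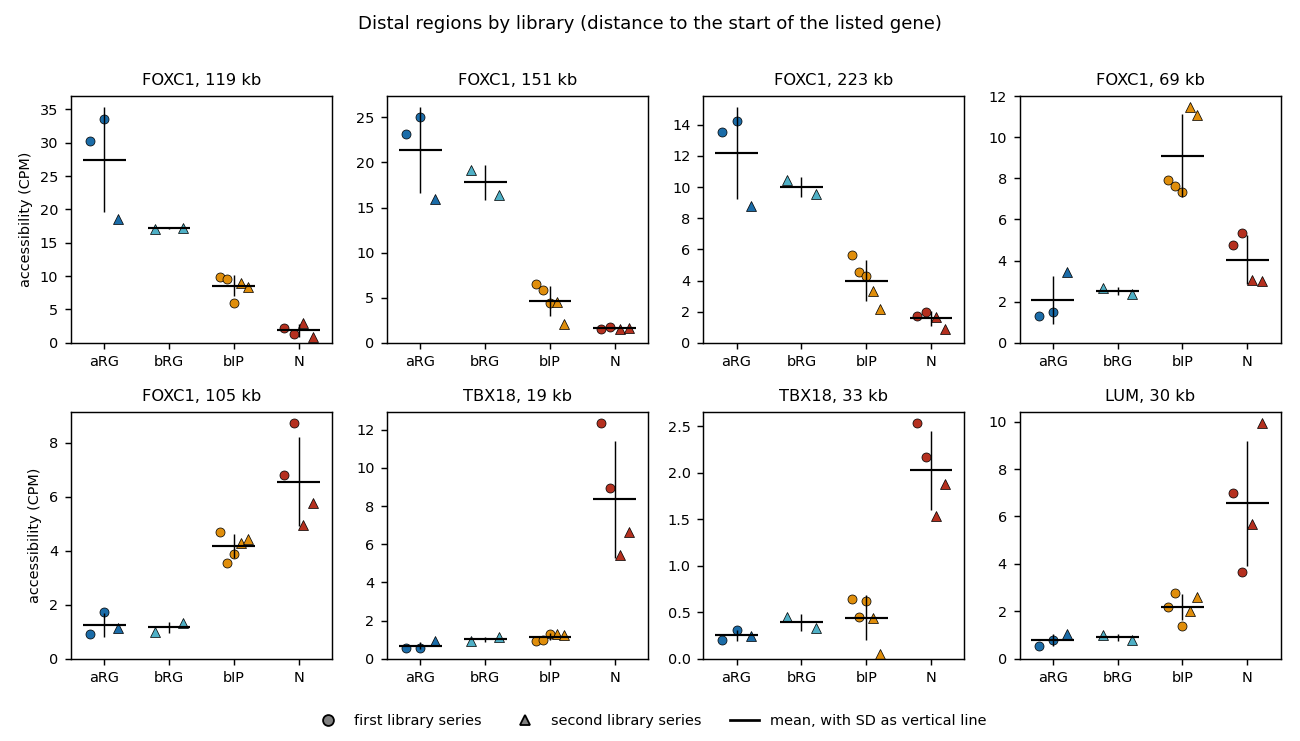
Accessibility in CPM (vertical axes, from 0, scaled per panel) of 8 distal regions by cell type (horizontal axis), titled with the gene they list and the distance to its start. Points are libraries, circles for the first and triangles for the second library series, with mean and SD as lines. The 3 FOXC1 regions at 119076, 151474 and 222649 bp fall to below 3 CPM in every N library, and the TBX18 and LUM regions are highest in N.

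Of the 4 PDGFRB distal regions, the one at 7706 bp (chromosome 5, 129669625 to 129671022) was more open than the promoter. It held 46.1, 48.8 and 37.6 CPM in aRG, 34.6 and 31.6 in bRG, 27.6, 26.4, 24.5, 34.1 and 34.4 in bIP, and 18.5, 22.8, 14.5 and 14.4 in N. The N libraries lay below all others, with N against bIP at -0.75 ± 0.17 (edgeR adjusted p = 0.00051). That call was lost in the first series alone (0.094), and the fall from aRG to bIP, -0.57 ± 0.18 (edgeR adjusted p = 0.011), was lost in the second (0.831). The region at 10983 bp (chromosome 5, 129667163 to 129667745) fell from 5.76 ± 1.94 CPM in bIP to 3.46 ± 0.695 in N (SD), by 0.74 ± 0.19 on the log2 scale (edgeR adjusted p = 0.00164). This call, too, was lost in the first series alone (edgeR adjusted p = 0.0546). The neighbour of the 7706 bp region at 7084 bp, mentioned after its values were seen, went the other way, from 2.03 ± 0.234 CPM in bRG to 4.28 ± 1.04 in bIP, a rise of 1.05 ± 0.36 (edgeR adjusted p = 0.021).

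The deposited consensus peaks, 1 set per cell type, were compared by overlap, without replicates. Peaks touched 28 of the 51 member regions in aRG and in bRG and 18 in bIP and in N, whereas they touched 36.8%, 36.2%, 36.0% and 37.2% of all regions on the same chromosomes. Promoter peaks numbered 6 in aRG and 7 in bRG, but 3 in bIP and 4 in N. Shares of all promoter or all distal regions touched were not computed. Counts by kind therefore have no background of their own here. FOXC1 and FOXC2 had a promoter peak in both radial glia sets and in neither of the others, and LUM in bRG only. TBX18, PDGFRB and COL1A1 had a promoter peak in all 4 sets, and TWIST1 in all but bIP. Among the FOXC1 distal regions, 19 were touched in aRG and 18 in bRG, against 10 in bIP and 8 in N. The TBX18 regions at 18671 and 33493 bp were touched in N only, and 14 distal regions by no set.

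Other genes of the same tissues were read from promoter lists. Of 24 further mesenchyme and meninges genes, 10 had a tested promoter. In N against aRG 8 of these passed as lower and 1 as higher, with a median of -0.88 beside -0.26 over all promoters. Over all tested promoter regions, 35.1% passed as lower and 17.2% as higher in N against aRG. FOXF2, a forkhead factor of head mesenchyme and the gene before FOXC1 in the RefSeq order, was the exception, rising by 0.97 ± 0.19 in N against bIP (edgeR adjusted p = 0.00013). FBN1, which encodes the microfibril protein fibrillin, fell by 1.10 ± 0.22 in bIP against bRG (edgeR adjusted p = 0.00024), as did ALDH1A2, a retinoic acid enzyme of the meninges, by 0.69 ± 0.26 (0.0395). FOXD1, another forkhead factor, fell by 0.63 ± 0.17 in N against bIP (edgeR adjusted p = 0.00318). Of 14 pericyte and mural genes, 10 were measured, and 8 passed as lower and 2 as higher in N against aRG, with a median of -1.03. CSPG4, the NG2 proteoglycan of pericytes, fell by 1.13 ± 0.17 in N against bIP (edgeR adjusted p = 2.96e-06), while MYH11, a smooth muscle myosin, rose by 1.18 ± 0.23 (9.64e-05). In bIP against bRG, 4 of the 10 measured pericyte promoters passed as lower and 1 as higher, with a median of -0.33. The 1 that rose was HIGD1B, a pericyte marker, by 2.35 ± 0.35 (edgeR adjusted p = 7.6e-06), from 1.17 CPM in bRG. Of 12 endothelial genes, 7 were measured, 1 passed as lower and 2 as higher in N against aRG, and EMCN, an endothelial sialomucin, rose by 1.92 ± 0.26 in N against bIP (edgeR adjusted p = 6.28e-07).

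Markers of the other cell types moved beside the 7 genes. Summed over its 10 measured promoters, the mesenchyme list ran from 173 to 193 CPM in aRG, 168 to 178 in bRG, 91.2 to 146 in bIP and 93.1 to 117 in N. The pericyte list ran from 118 to 137, 104.6 to 104.8, 67.2 to 93.4 and 54.1 to 76.7 CPM, and the endothelial list of 7 promoters from 35.5 to 42.3, 33.6 to 36.5, 26.5 to 29.4 and 31.4 to 50.5. The radial glia list, 13 measured promoters of 14, ran from 516 to 575, 437 to 481, 225 to 339 and 163 to 207 CPM. In N against aRG all 13 passed as lower, beside 35.1% of all promoter regions, with a median of -1.77. Among intermediate progenitor genes NHLH1, a helix-loop-helix factor, rose by 3.22 ± 0.31 in bIP against bRG (edgeR adjusted p = 6.4e-08), and of the neuronal genes MYT1L, a neuronal identity factor, by 3.10 ± 0.26 (3.49e-08). No measured promoter of any list had a count of 0 summed over the libraries of a group, though a count above 0 does not show that a promoter is open. Promoters of 14 of the 24 mesenchyme genes (COL3A1, DCN and POSTN among them) and of HES5, NEUROG2 and DCX were not measured. The part of mesenchymal cells, or of radial glia, in the accessibility of the 7 genes was not tested.

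The 7 promoters did not all vary alike across the 14 libraries, as a description of libraries that share cell types, depth and series. The correlation of log2 CPM was 0.937 between TBX18 and PDGFRB, 0.932 between FOXC1 and TWIST1 and 0.954 between FOXC2 and COL1A1, and LUM ran from -0.480 with PDGFRB to 0.280 with FOXC2. Among 10098 other protein-coding promoters, those most like FOXC1 were ZNF521 (r = 0.985), COL11A2 (0.984) and MEOX2 (0.978). Those most like FOXC2 were DIPK1C (0.973), NEK6 (0.967) and NXPH2 (0.964), and among those most like TWIST1 were AGAP1 (0.979) and GATA6 (0.969). TBX18 was most like ISL1 (0.992), NYNRIN (0.989) and LNPEP (0.987), and PDGFRB most like PRIMA1 (0.979), LTBP3 (0.974) and SIX2 (0.973). For COL1A1 they were NDRG2 (0.967), ASB3 (0.956) and FOXC2 (0.954), and for LUM they were TMEM139 (0.924), SPINK1 (0.916) and NPS (0.906).

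As an effect common to all cell types, the library series shifted few of these regions. Between series, 4 of 50 member regions passed (8%), beside 15.8% of all regions, and none was a promoter. FOXC1 regions at 222649, 255684 and 261937 bp were lower and the PDGFRB region at 10983 bp higher in the second series. Within series, N against aRG at the FOXC1 promoter was -1.86 in the first and -2.04 in the second, and at FOXC2 -1.82 and -1.94. For TWIST1 it was -0.73 and -0.99, for TBX18 -0.77 and -1.09, for PDGFRB -1.03 and -2.01 and for COL1A1 -0.74 and -0.998. All 6 were negative in both series, while LUM was -0.32 and 0.76. The N against aRG difference itself differed between series at 2 of the 50 regions, the FOXC1 region at 68872 bp and the PDGFRB region at 7084 bp, beside 2.77% of all regions. The N against bIP difference did so at more member regions, beside 8.33% of all regions. Among them were the promoters of PDGFRB (second minus first series, -1.24) and LUM (1.56).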

How the data were processed

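For 14 bulk ATAC-seq libraries the authors deposited a table of raw whole-number counts, a row for each region. The submitters' processing notes name bcl2fastq 2.20.0, MACS2 and the builds hg38 and panTro6. Which aligner and counter were used, and whether reads were shifted for the transposase, is not given in the sources used here. Per the file headers, regions are also named in gorGor6, and starts are printed counted from 1. Distances to genes are the authors' and match hg38. Per the file headers, the authors' consensus peaks carry a score, a fold enrichment, a −log10 p-value and a −log10 q-value. Only the −log10 q was used, for a stricter set. The peak sets state no build and were taken as gorGor6, since 12580 or more region starts per set equal a peak start.

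Of 218080 rows, 13823 without a gorilla position and 8 repeats were left out. Tests on the counts were run in edgeR 4.0.16 (R 4.3.3): TMM scaling, filterByExpr (200931 regions kept), a quasi-likelihood model with 1 mean per cell type and a library series term over all 14 libraries (9 residual degrees of freedom), and Benjamini-Hochberg adjustment over all regions at 0.05. CPM were computed from TMM-scaled totals. Correlations used log2 CPM with a prior count of 2. Named are the 7 promoters, for each gene the distal region with the highest mean CPM and the 2 with the smallest p over cell types, the 3 promoters most like each gene (1 of them is not reported here), and 2 to 4 genes per list with the smallest p. Members and lists were chosen with earlier results of these data known. The procedure was tested on simulated counts. The alternatives were DESeq2, other scalings, filters and fits, and leaving out each library. All 7 names matched RefSeq (NHGRI_mGorGor1-v2.1_pri). Motif searches were not run.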

Additional observations from a re-analysis of the deposited data

Results flagged for a closer look

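Of 32 groups of 4 or 5 libraries checked for a library far from the others, 2 held one, where chance gives about 1 in 20. The FOXC2 promoter was lowest in N replicate 1, at 1.13 CPM, with the other 3 N libraries between 1.49 and 1.55. The FOXC2 distal region at 2459 bp was highest in bIP replicate 4, at 12.8 CPM, with the other 4 bIP libraries between 9.06 and 9.99.

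The difference between N and bIP depended on the library series at 8 member regions, by a test of the interaction itself (edgeR's quasi-likelihood test with Benjamini-Hochberg adjustment over all regions, where 8.33% of regions passed). In the second minus the first series, the log2 difference was -1.24 at the PDGFRB promoter, and -1.67, -0.90 and -1.20 at the PDGFRB distal regions at 7084, 7706 and 16425 bp. It was 1.56 at the LUM promoter. Among FOXC1 regions it was -1.29 at 68872 bp, 1.58 at 228099 bp and -1.18 at 261937 bp. For N against aRG, where 2.77% of regions passed, 2 member regions did, FOXC1 at 68872 bp with -2.03 and PDGFRB at 7084 bp with -1.58. The second series holds 1 aRG library.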

How the results depend on the processing

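Direction was compared only for the promoters and the distal regions named by the rule above, and no alternative turned a call there. Other regions were not compared in this way, and some changed sign between series. N against bIP at the PDGFRB region at 7084 bp was 0.60 in the first series and -1.07 in the second. N against aRG at the FOXC1 region at 68872 bp was 1.86 and -0.18. With regions of at least 10 CPM in 2 libraries, fewer regions entered, and 16 member regions were tested. Calls in bIP were 10 against aRG and 9 against bRG, beside 65.5% and 57.7% of all regions in that fit. Calls in N were 12 against bIP, 12 against aRG and 11 against bRG, beside 67.7%, 76.8% and 72.9%. Over any cell type 14 were called, beside 86.3%. In the second library series alone, bIP against aRG called 16, beside 24.6% of all regions, with 7 libraries in the fit. Leaving out 1 library at a time gave 28 to 34 calls in bIP against aRG, beside 37.9% to 50.2% of all regions. It gave 25 to 32 in N against bIP (50.5% to 57.9%) and 35 to 41 in N against aRG (60.7% to 68.5%). Over any cell type there were 41 to 45 (71.1% to 77.9%), and between series 3 to 6 (11.4% to 22.3%). With both bRG libraries kept, there were 21 to 28 in bIP against bRG (31.7% to 41.8%) and 31 to 38 in N against bRG (54.8% to 60.9%). In bRG against aRG there were then 0, beside at most 0.00548%. Leaving out a bRG library left 1 in that group, and calls against bRG were lost, as given above for FOXC1, TWIST1, COL1A1 and LUM. The PDGFRB region at 10983 bp also lost its N against bRG call, at -0.68 without bRG replicate 2. The replicate numbers do not pair the libraries: of 16 pairs with the same number 1 had correlated deviations over 0.1 (range -0.46 to 0.17), and 1 of 14 libraries correlated best with its own number. With the replicate block, bIP against bRG called 0 (2.92% of all regions), N against bRG 13 (22.3%) and the series 0; the cause was not tested. There the bIP against bRG differences were -0.51 at the FOXC1 promoter, -0.08 at FOXC2 and -0.35 at COL1A1 (edgeR adjusted p = 0.704, 0.978 and 0.75). DESeq2's size factors shifted the median N against aRG difference of all regions by -0.12, loess offsets by -0.11, and no filter by -0.18. Of the single-region values, taken at the regions named by rule only, 47 lost and 25 gained a call. The other 2243 stayed on the same side of the threshold. Among these 2243, 117 without a call changed sign. With 2 bRG libraries and member regions below 3 CPM, small differences were not detectable.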
